A study of Saccharomyces cerevisiae with 16 samples.

Results

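The mitochondrial ribosome of *Saccharomyces cerevisiae* is built almost entirely from proteins encoded in the nucleus, and the genes for these proteins are the subject here. They were chosen by name alone: a probe set belonged if the gene symbol annotated to it began with MRPL, MRPS or RSM and a digit, or with MRP and a digit. The rule found 66 genes with 1 probe set each, among 5498 *S. cerevisiae* probe sets (5449 genes) on a 2-species yeast array. Of the 66, 37 encode proteins of the large subunit and 28 proteins of the small subunit. *MRP8* meets the name rule but its product was placed in neither subunit. Homologues in the bacterial ribosome are known for 23 of the large-subunit and 17 of the small-subunit proteins, and the other 14 and 11 belong to the part of the ribosome that is particular to mitochondria. The genes are scattered over 14 chromosomes, and only 1 pair, *MRPS12* and *RSM19*, are neighbours.

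The mitochondrial ribosome translates a handful of messenger RNAs made from mitochondrial DNA, most of them for membrane subunits of the respiratory chain and the ATP synthase. Its proteins are made in the cytosol, imported and assembled on the mitochondrial ribosomal RNAs, so their genes need to be expressed together and in balance with the other parts of mitochondrial translation. In yeast many of the messenger RNAs carry sites for Puf3, a protein that binds their 3′ ends, and respiratory genes are activated by the Hap2/3/4/5 complex, of which Hap4 is the regulated subunit.

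The study asked how Mss11 and Flo8, transcription factors that activate the adhesin gene *FLO11*, act in 2 yeast strain backgrounds. It held 8 conditions with 2 arrays each, given as biological replicates, and all strains carried the multicopy plasmid YEpLac195 with or without an insert. S288c 2μ-MSS11 was strain BY4742 with *MSS11* on the plasmid, and S288c wild type was BY4742 with the empty plasmid. Both were labelled MATα with deletions in *HIS3*, *LEU2*, *LYS2* and *URA3*. The study states that S288c carries a nonsense mutation in *FLO8*, so the name wild type does not extend to *FLO8* in this background. Σ1278b 2μ-MSS11 carried *MSS11* on the plasmid, Σ1278b mss11 had *MSS11* deleted, and Σ1278b wild type had the empty plasmid; these and the following conditions were labelled MATα with mutated *URA3*, *TRP1*, *LEU2* and *HIS3*. A second set of Σ1278b arrays was titled FLO8 overexpressed, flo8 deleted and wild type, and the last is called wild type b here. In that set the plasmid labels and the titles did not match, since the arrays titled flo8 deleted were labelled with the *FLO8* plasmid and those titled FLO8 overexpressed with the empty one. All cultures were grown in synthetic dropout medium with 2% glucose at 30 °C. The labels place the harvest at early stationary phase, whereas the study's methods describe exponential growth.

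All gene values are log2 of the deposited array intensity. The lowest intensity on an array, on the linear scale before log2, was near 3.36, 3.55 or 3.11. These lowest intensities fell into 3 groups that matched the Σ1278b MSS11 set, the S288c set and the Σ1278b FLO8 set. Whether the sets were scaled separately is not given in the sources used here. Levels of the 66 genes were compared between sets only relative to all 5498 probe sets. *MSS11* was at 13.27 and 12.37 in S288c 2μ-MSS11 and at 8.87 on both wild type arrays, and at 13.50 and 13.58 in Σ1278b 2μ-MSS11, 3.01 and 3.03 in Σ1278b mss11, and 7.495 and 8.34 in Σ1278b wild type. *FLO8* was at 15.71 and 12.90 on the arrays titled FLO8 overexpressed and at 11.06 and 11.16 on those titled flo8 deleted, against 11.59 and 11.63 in wild type b. The signal of the gene named as deleted was therefore still high, and "titled" is kept for these conditions throughout. *FLO11* was at 6.25 and 5.34 on the arrays titled flo8 deleted, against 13.93 and 14.24 in wild type b. The marker genes followed their labels in part. On the 4 S288c arrays *LEU2* was at 2.02 and *LYS2* between 2.03 and 2.04, but *HIS3*, also labelled as deleted, was at 14.72 and 13.54 in S288c 2μ-MSS11 and at 14.78 and 14.79 in S288c wild type. On the 12 Σ1278b arrays *HIS3* was at most 4.90, but *LEU2*, also labelled as mutated, between 13.31 and 14.58. The study's strain list gives *LEU2* as the marker inserted in the *MSS11* and *FLO8* deletions of Σ1278b. *LEU2* was at 14.55 and 14.43 in Σ1278b mss11, but also at 13.32 and 13.48 in Σ1278b wild type. On the S288c arrays the genes of mating type followed the MATα label only in part. *STE2*, which encodes the receptor of MATa cells, was at 13.56 and 13.49 in S288c wild type. In S288c 2μ-MSS11 *STE2* was at 12.42 in replicate 1 and 6.81 in replicate 2. *STE3*, the receptor gene of MATα cells, was between 12.48 and 13.94 on all 4 S288c arrays. On the 12 Σ1278b arrays both genes followed the label, with *STE2* between 4.79 and 6.56 and *STE3* between 10.68 and 13.03.

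The S288c 2μ-MSS11 arrays stood apart from every other pair. Over all 5498 probe sets 29.3% differed by more than 1 between these replicates, and the root mean square SD was 0.857, against 0.0910 to 0.290 in the other 7 conditions. Replicate 1 correlated at 0.966 with S288c wild type and at 0.844 with Σ1278b wild type, whereas replicate 2 correlated at 0.904 and 0.914. Among the 66 genes, 64 were higher in replicate 2, by a median of 1.16, although only 49.1% of all probe sets were. Of the 66, 42 were higher by more than 1, as were 13.5% of all probe sets. The S288c results of the 66 genes are therefore given with and without each of these arrays.

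All 66 genes were measured above a log2 intensity of 5 on every array. Relative to the array's median, the median of the 66 was −0.58 and 0.70 in S288c 2μ-MSS11 and −0.60 and −0.61 in S288c wild type. It was 0.01 and −0.00 in Σ1278b 2μ-MSS11, 0.18 and 0.26 in Σ1278b mss11, and 0.38 and 0.22 in Σ1278b wild type. In the other Σ1278b set it was 0.69 and 0.70 on the arrays titled FLO8 overexpressed, 0.65 and 0.60 on those titled flo8 deleted, and 0.74 and 0.71 in wild type b. The genes thus ranked low among all genes on 3 of the 4 S288c arrays, in the middle in Σ1278b 2μ-MSS11 and high in the FLO8 set and in S288c 2μ-MSS11 replicate 2. As percentiles of all probe sets, the median gene stood at 37.6 and 65.5 in S288c 2μ-MSS11 and at 37.2 and 36.2 in S288c wild type. It stood at 50.1 and 50.0 in Σ1278b 2μ-MSS11 and at 58.2 and 54.5 in Σ1278b wild type. These are levels in bulk RNA, in which fewer cells of one state and less RNA per cell cannot be told apart.

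**Figure D1:**
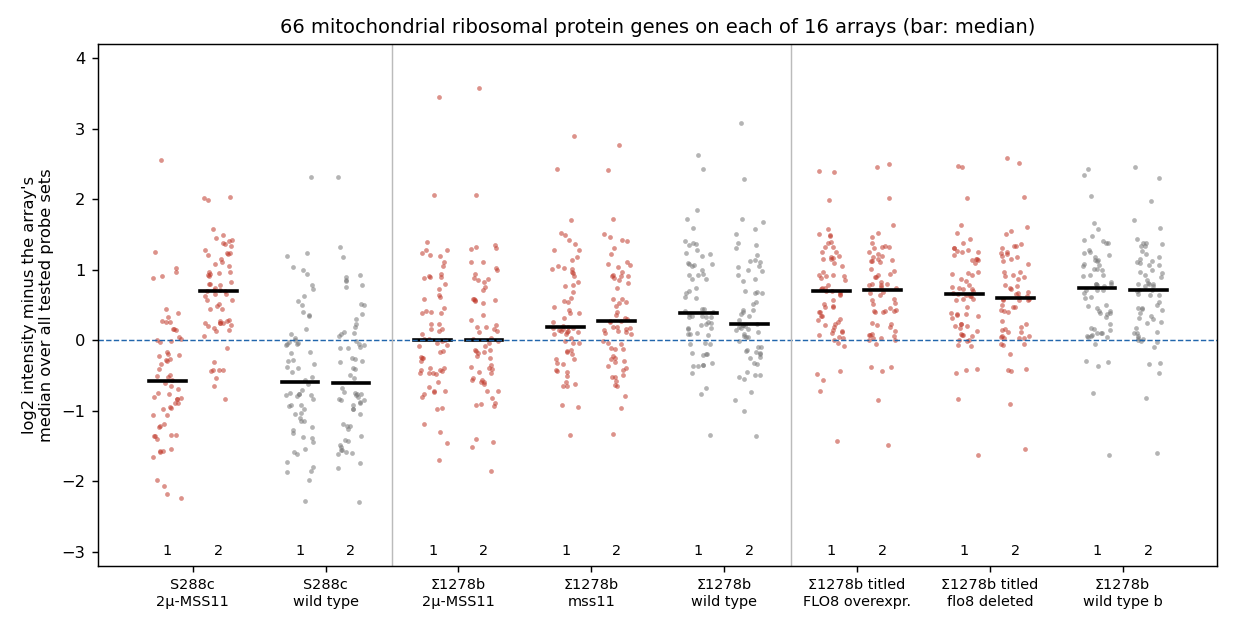
Each point is 1 of the 66 genes on 1 of 16 arrays, as log2 intensity minus that array's median over all tested probe sets (vertical axis), with replicates 1 and 2 side by side in each condition; black bars are medians and grey vertical lines separate the 3 array sets. The median is 0.70 in S288c 2μ-MSS11 replicate 2 but −0.58 in replicate 1, against −0.60 and −0.61 in S288c wild type.

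In S288c 2μ-MSS11 the genes were higher than in S288c wild type on average, but this came from replicate 2. The median change of the 66 was 0.56 on the log2 scale, against −0.01 over all probe sets, and 62 of 66 changes were positive. Only *MRPS16* and *MRP4* passed the test (limma, Benjamini-Hochberg adjusted p under 0.05), 2 of 66 higher and 0 lower, where 7.26% of all probe sets were called higher and 9.60% lower. The share of the genes called higher was thus below the background. In 24 of the 66 both 2μ-MSS11 arrays lay above both wild type arrays, and in 1 both lay below, against 21.8% and 25.7% of all probe sets.

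*MRPS16* encodes a small-subunit protein with a bacterial homologue. It was at 10.69 and 11.70 in S288c 2μ-MSS11 and at 10.33 and 10.27 in S288c wild type, a change of 0.90 (adjusted p = 0.0443). Both 2μ-MSS11 arrays lay above both wild type arrays, but replicate 1 lay much nearer to them. *MRP4*, whose product is also a small-subunit protein with a bacterial homologue, was at 9.02 and 9.94 in S288c 2μ-MSS11 and at 8.50 and 8.77 in S288c wild type, a change of 0.84 (adjusted p = 0.0479). *MRPS17* was the gene nearest the threshold without passing it, at 9.30 and 10.43 in S288c 2μ-MSS11 and 9.13 and 8.86 in S288c wild type (0.87, adjusted p = 0.0579). In all 3 the arrays of the conditions did not overlap. Neither call held when 1 wild type array was left out: without wild type replicate 1 the adjusted p was 0.137 for *MRPS16* and 0.205 for *MRP4*, and without wild type replicate 2 it was 0.181 and 0.121.

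Taken singly, the 2μ-MSS11 arrays differed on the 66 genes. Replicate 1 minus the wild type mean had a median of −0.04 over the 66 genes, with 29 above 0 and 37 below, and a range of −0.64 to 0.40. Replicate 2 minus the wild type mean had a median of 1.16, a 2.23-fold difference, with 64 above 0. Without replicate 1 the test called 63 of the 66 genes higher and 1 lower, where 34.7% of all probe sets were higher and 34.1% lower. Without replicate 2 it called 2 higher and 15 lower, where 12.9% were higher and 19.4% lower, so the share of the genes called lower, 22.7%, was near the background. In both cases the remaining array was assumed to vary like the other conditions. The fall of 15 genes in replicate 1 included *MRPL50* (−0.64), *MRPL16* (−0.60) and *RSM10* (−0.54), chosen after their values were seen.

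The largest differences between the replicates were in *MRPL50* and *MRPL19*, both of the large subunit. The small-subunit gene *MRPS8* also differed by 2.34. Replicate 2 minus the wild type mean had a median of 1.22 in the large and 1.11 in the small subunit. *MRPL50* was at 8.78 and 11.53 in S288c 2μ-MSS11 and at 9.39 and 9.45 in S288c wild type. *MRPL19* was at 8.12 and 10.82 in S288c 2μ-MSS11 and at 8.37 and 8.63 in S288c wild type. In both genes wild type lay between the 2μ-MSS11 arrays, and close to replicate 1. *MRPL31*, with the largest mean change that did not pass the test (1.08), was at 9.72 and 11.95 in S288c 2μ-MSS11 and 9.91 and 9.60 in S288c wild type. *MRPL50*, *MRPL19*, *MRPS8* and *MRPL31* were named after their values were seen. The only genes lower in replicate 2 than in replicate 1 were *RSM22*, at 10.38 and 9.53 in S288c 2μ-MSS11 and 10.45 and 10.43 in S288c wild type, and *MRP8*, at 12.92 and 12.40 in S288c 2μ-MSS11 and 12.67 and 12.69 in S288c wild type. Rsm22 resembles methyltransferases and is needed for assembly of the small subunit.

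**Figure D2:**
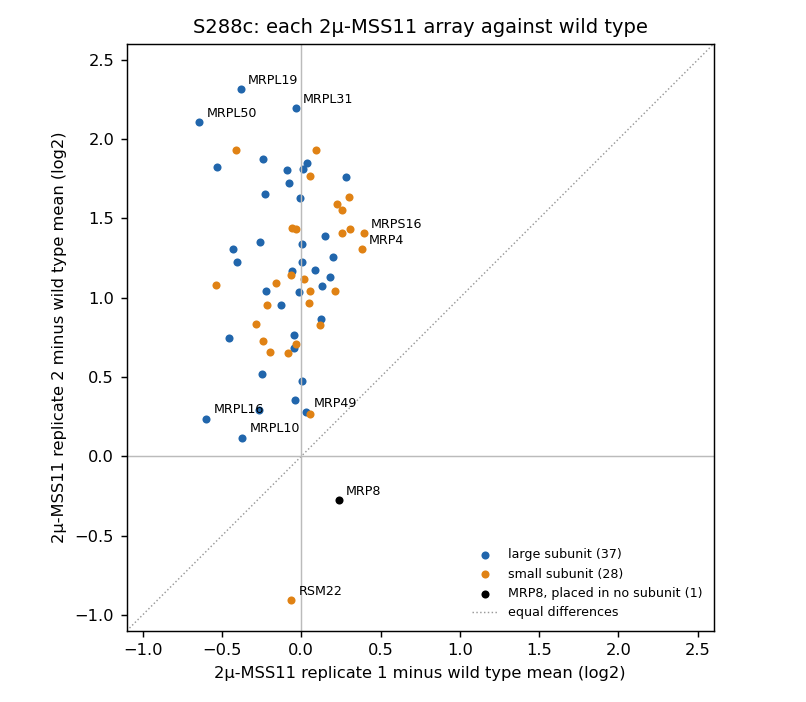
Each point is 1 of the 66 genes in S288c, with the log2 difference of 2μ-MSS11 replicate 1 from the wild type mean on the horizontal axis and that of replicate 2 on the vertical axis; blue marks large-subunit, orange small-subunit genes and black *MRP8*. Replicate 1 scatters around 0 (median −0.04), while 64 of 66 points lie above 0 for replicate 2 (median 1.16), with *RSM22* and *MRP8* below.

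In Σ1278b 2μ-MSS11 the genes were lower than in Σ1278b wild type, in both replicates and almost without exception. The median change of the 66 was −0.41 on the log2 scale, against −0.03 over all probe sets, and 64 of 66 changes were negative. In 61 of the 66 both 2μ-MSS11 arrays lay below both wild type arrays, where 37.2% of all probe sets did so, and in 1 both lay above (24.4%). The large subunit (median −0.43, 36 of 37 negative) and the small subunit (median −0.38, 28 of 28 negative) had similar medians. So had proteins with a bacterial homologue (−0.42 in the large and −0.35 in the small subunit) and those without (−0.44 and −0.49).

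Only *MRP4* passed the test over all 16 arrays, 1 of 66 lower and 0 higher, where 4.17% of all probe sets were called lower and 1.05% higher. *MRP4* was at 9.001 and 8.70 in Σ1278b 2μ-MSS11 and at 10.15 and 9.95 in Σ1278b wild type, with 9.57 and 9.70 in Σ1278b mss11. The change was −1.196 (SE 0.25, adjusted p = 0.0274), and the 3 conditions did not overlap. Its adjusted p was 0.165 without wild type replicate 1, 0.0634 without 2μ-MSS11 replicate 1, 0.234 without 2μ-MSS11 replicate 2 and 0.0362 without wild type replicate 2.

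This count depended on which arrays entered the fit, because all conditions shared 1 variance per probe set and the S288c 2μ-MSS11 pair supplied most of it for these genes. The median SD of the 66 was 0.0656 in Σ1278b 2μ-MSS11 and 0.0773 in Σ1278b wild type, but 0.822 in S288c 2μ-MSS11. With the 6 Σ1278b MSS11 arrays fitted alone, 13 of the 66 passed as lower and 0 as higher, where 3.07% and 0.964% of all probe sets did. With a variance factor for each condition, 20 passed as lower and 1 as higher (6.95% and 1.78%). Without the S288c 2μ-MSS11 arrays, a setting added after the data were seen, 48 passed as lower and 1 as higher, where 24.0% of all probe sets were lower and 10.1% higher. The changes themselves were the same in these settings. When 1 of the 4 Σ1278b arrays was left out as well, 48 (without wild type replicate 1), 46 (without wild type replicate 2), 45 (without 2μ-MSS11 replicate 1) and 47 (without 2μ-MSS11 replicate 2) passed as lower, where 22.2%, 25.9%, 19.2% and 14.5% of all probe sets did.

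The 13 genes that passed in the Σ1278b arrays alone came from both subunits. Those of the large subunit were *MRPL23*, *MRPL32*, *MRPL33*, *MRPL35*, *MRPL39*, *MRPL40*, *MRPL44* and *MRPL49*, and those of the small subunit *MRP4*, *MRP13*, *RSM10*, *RSM19* and *RSM25*. *MRPL40* was at 9.43 and 9.39 in Σ1278b 2μ-MSS11 and at 10.004 and 10.08 in Σ1278b wild type. *MRPL33* was at 10.41 and 10.40 in Σ1278b 2μ-MSS11 and at 11.13 and 10.94 in Σ1278b wild type. In both genes the 2μ-MSS11 replicates were close together and well below wild type. *MRPL32* encodes a large-subunit protein that is trimmed by a mitochondrial protease before it joins the ribosome, and was at 10.15 and 10.17 in Σ1278b 2μ-MSS11 and at 10.82 and 10.68 in Σ1278b wild type. *RSM19*, for a small-subunit protein with a bacterial homologue, was at 9.93 and 9.74 in Σ1278b 2μ-MSS11 and at 10.47 and 10.45 in Σ1278b wild type.

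Only *MRP8* and *MRP49* had positive changes. *MRP8* was at 13.64 and 13.80 in Σ1278b 2μ-MSS11 and at 12.83 and 13.35 in Σ1278b wild type, with 13.07 and 12.96 in Σ1278b mss11 (0.63, adjusted p = 0.0883). It was the gene nearest the threshold without passing it. *MRP49*, which encodes a large-subunit protein, was at 10.42 and 10.58 in Σ1278b 2μ-MSS11 and at 10.37 and 10.48 in Σ1278b wild type, where the conditions overlapped. The gene with the largest negative change after *MRP4* was *RSM27*, for a small-subunit protein without a bacterial homologue, at 8.73 and 8.36 in Σ1278b 2μ-MSS11 and 9.44 and 9.28 in Σ1278b wild type (−0.82). *MRPL20*, for a large-subunit protein without a bacterial homologue, followed at 8.88 and 8.82 in Σ1278b 2μ-MSS11 and 9.84 and 9.42 in Σ1278b wild type (−0.78).

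**Figure D3:**
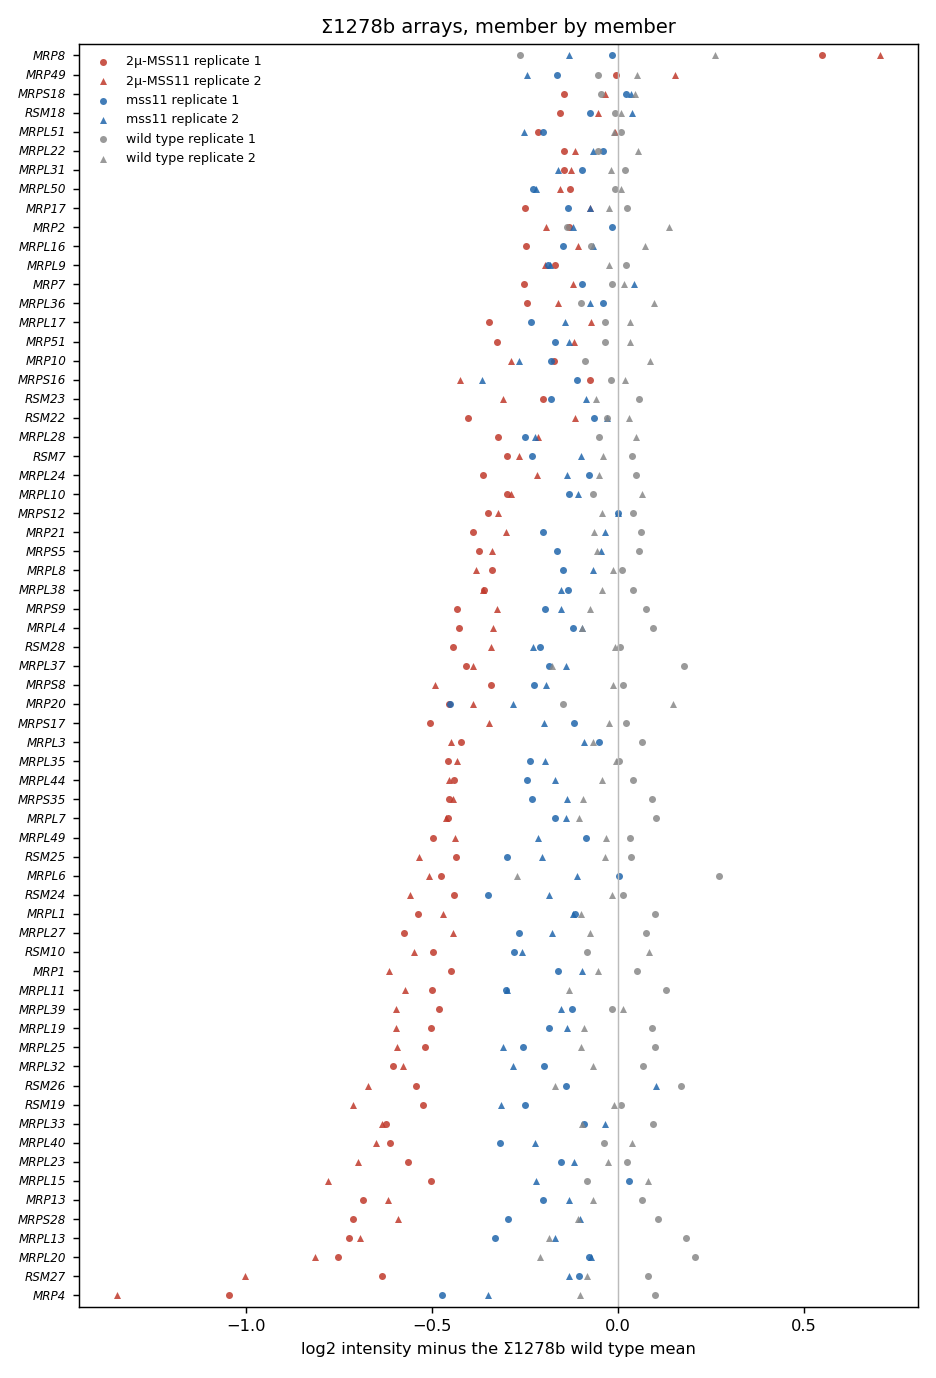
Each row is 1 of the 66 genes, ordered by its change in Σ1278b 2μ-MSS11, and the horizontal axis gives log2 intensity minus the mean of the Σ1278b wild type arrays; red is 2μ-MSS11, blue mss11 and grey wild type, with circles for replicate 1 and triangles for replicate 2. Both red points lie below both grey points in 61 genes, *MRP8* stands at the top with 0.63 and *MRP4* at the bottom with −1.196.

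In Σ1278b mss11 the genes were also lower than in Σ1278b wild type, by less. Relative to the array median, the median of the 66 was 0.18 and 0.26 in mss11 and 0.38 and 0.22 in wild type, so the conditions overlapped. The median change was −0.15, against −0.04 over all probe sets, with 64 of 66 negative. In 44 of the 66 both mss11 arrays lay below both wild type arrays, and in 0 above, where 24.5% and 11.2% of all probe sets did so. None of the 66 passed limma's test, none had an unadjusted p under 0.05, and 0.0909% of all probe sets were called lower and 0.0364% higher. Without the S288c 2μ-MSS11 arrays 29 had an unadjusted p under 0.05 and still 0 passed. Leaving out wild type replicate 1 as well gave 10 lower, where 20.1% of all probe sets were lower, and leaving out wild type replicate 2 as well gave 3 (0.418%). This comparison and that of 2μ-MSS11 used the same 2 wild type arrays. *MRP4* had the largest negative change (−0.41), at 9.57 and 9.70 in Σ1278b mss11 against 10.15 and 9.95 in Σ1278b wild type. *MRP49* was nearest the threshold, with the smallest unadjusted p (0.0678), at 10.26 and 10.18 in Σ1278b mss11 and 10.37 and 10.48 in Σ1278b wild type.

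In the FLO8 set the changes of the genes were close to 0. On the arrays titled FLO8 overexpressed the median change was −0.02, against −0.00 over all probe sets, with 25 positive and 41 negative, and the largest change among the 66 was 0.15 (*RSM22*). In 7 of the 66 both arrays lay above both wild type b arrays and in 21 below, against 25.5% and 25.8% of all probe sets. On the arrays titled flo8 deleted the median was −0.08, against −0.00, with 53 of 66 negative, and in 43 both arrays lay below both wild type b arrays (33.5% of all probe sets) and in 4 above (32.1%). None of the 66 passed limma's test or had an unadjusted p under 0.05 in either comparison. Among all probe sets 0.0546% were called higher and 0 lower for the arrays titled FLO8 overexpressed, and 0.127% higher and 0.273% lower for those titled flo8 deleted. With a variance factor for each condition 4 of the 66 passed as lower on the arrays titled flo8 deleted (*MRPL28*, *MRPL33*, *MRPL37* and *MRPS28*), where 9.39% of all probe sets did. *MRPL28*, which had the smallest unadjusted p (0.338) with the shared variance, was at 11.76 and 11.69 on the arrays titled flo8 deleted and at 11.96 and 11.90 in wild type b, so the conditions did not overlap. *MRP49*, nearest the threshold in the other comparison, was at 12.03 and 12.07 on the arrays titled FLO8 overexpressed and at 11.96 and 11.99 in wild type b.

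The change under 2μ-MSS11 in Σ1278b was subtracted from that in S288c to compare the backgrounds. The part of the *FLO8* mutation of S288c in this difference was not tested. The median difference of the 66 genes was 1.003, against 0.004 over all probe sets, and 63 of 66 were positive. Of the 66, 9 passed the test, all positive, where 10.3% of all probe sets were called positive and 5.64% negative. The share among the genes, 13.6%, was near this background. They were *MRP4* (2.04, adjusted p = 0.00798), *MRPL20* (1.81), *RSM27* (1.78), *MRPL40* (1.4), *MRPL25* (1.28), *RSM28* (1.02), *MRPL33* (0.99), *RSM24* (0.97) and *MRPL3* (0.93), with adjusted p between 0.0323 and 0.0480 for the last 8. *RSM24*, *RSM27* and *RSM28* encode small-subunit proteins without a bacterial homologue, and *MRPL3*, *MRPL20* and *MRPL25* large-subunit proteins without one. *MRP4* in the small subunit and *MRPL33* and *MRPL40* in the large subunit have bacterial homologues.

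The fitted mean changes behind these differences had opposite signs in the strains, but most of each S288c rise lay in 2μ-MSS11 replicate 2. For *MRPL33*, replicate 1 minus the S288c wild type mean was −0.04. Among these genes only *MRP4* was called within a strain. *MRPL20* was at 9.14 and 10.61 in S288c 2μ-MSS11 and 8.81 and 8.89 in S288c wild type, but at 8.88 and 8.82 in Σ1278b 2μ-MSS11 and 9.84 and 9.42 in Σ1278b wild type. *RSM27* was at 8.38 and 9.71 in S288c 2μ-MSS11 and 8.08 and 8.08 in S288c wild type, but at 8.73 and 8.36 in Σ1278b 2μ-MSS11 and 9.44 and 9.28 in Σ1278b wild type. In each of these genes the arrays of the paired conditions did not overlap in either strain. *MRPL25* was at 9.56 and 10.61 in S288c 2μ-MSS11 and 9.32 and 9.40 in S288c wild type, and at 9.76 and 9.68 in Σ1278b 2μ-MSS11 and 10.38 and 10.18 in Σ1278b wild type. *RSM28* was at 9.76 and 10.59 in S288c 2μ-MSS11 and 9.57 and 9.53 in S288c wild type, and at 9.93 and 10.03 in Σ1278b 2μ-MSS11 and 10.38 and 10.36 in Σ1278b wild type. In both genes the S288c difference was small in replicate 1, and in Σ1278b both arrays lay below wild type. *MRPL40* was at 8.71 and 9.95 in S288c 2μ-MSS11 and 8.56 and 8.56 in S288c wild type. *MRPL33* was at 10.19 and 10.997 in S288c 2μ-MSS11 and 10.19 and 10.28 in S288c wild type, where the arrays overlapped. *RSM24* was at 10.10 and 10.81 in S288c 2μ-MSS11 and 9.98 and 9.98 in S288c wild type, and at 10.20 and 10.08 in Σ1278b 2μ-MSS11 and 10.65 and 10.62 in Σ1278b wild type. *MRPL3* was at 10.41 and 11.15 in S288c 2μ-MSS11 and 10.31 and 10.27 in S288c wild type, and at 10.77 and 10.74 in Σ1278b 2μ-MSS11 and 11.25 and 11.12 in Σ1278b wild type.

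The difference between the strains kept its sign without either S288c 2μ-MSS11 array, but its size did not hold. Without replicate 1 the median was 1.63, with 63 genes called positive and 2 negative (36% and 30.8% of all probe sets). Without replicate 2 the median was 0.29, with 29 called positive and 2 negative (19.8% and 16.5%). *MRP4* then differed by 1.58, *RSM27* by 1.12, *MRPL20* by 1.07, *MRPL40* by 0.78 and *MRPL25* by 0.76. Only 1 gene stayed positive and called when S288c wild type replicate 1 or 2 was left out (4.97% and 4.66% of all probe sets), or Σ1278b wild type replicate 1 (5%), or Σ1278b 2μ-MSS11 replicate 1 or 2 (6.33% and 2.89%). Without Σ1278b wild type replicate 2, 7 were positive and 1 negative (11.2% and 9.08%).

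**Figure D4:**
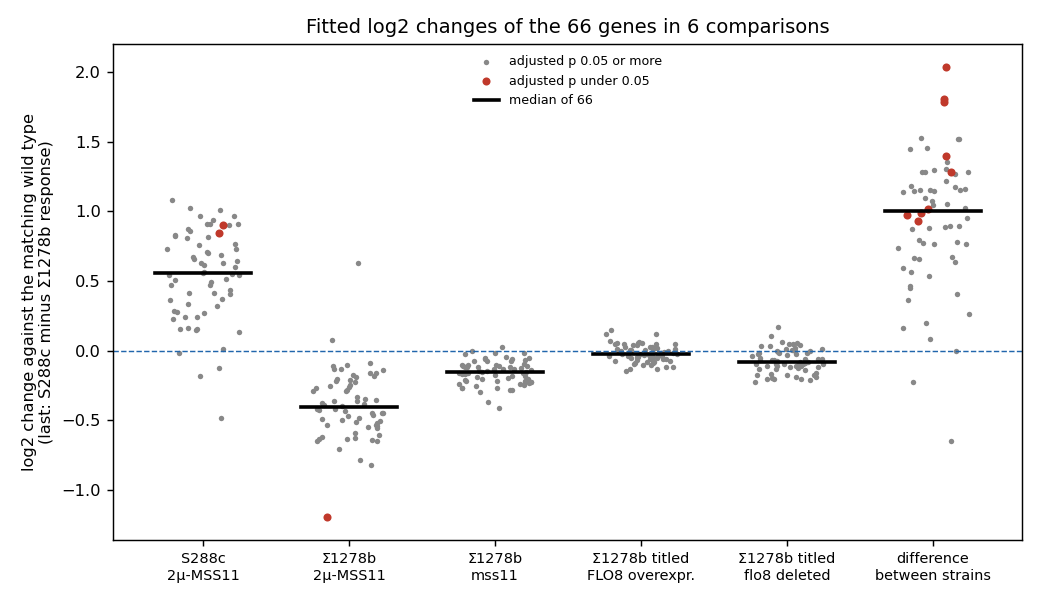
Each point is the fitted log2 change of 1 of the 66 genes against the matching wild type, by comparison along the horizontal axis, with the S288c minus the Σ1278b response at the right; red points have an adjusted p under 0.05 and black bars are medians. The medians are 0.56 in S288c 2μ-MSS11, −0.41 in Σ1278b 2μ-MSS11, −0.15 in Σ1278b mss11, −0.02 and −0.08 in the FLO8 set and 1.003 for the difference.

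The wild types themselves differed on these genes, as a description without a test, because strain and array set cannot be told apart. All differences between sets are given here relative to the median difference of all probe sets. S288c wild type minus Σ1278b wild type had a median of −0.87 over the 66 genes, and 59 of 66 were lower in S288c. The lowest were *MRP2* (−1.79), *MRPL19* (−1.73) and *MRPL1* (−1.69). Proteins with a bacterial homologue had medians of −0.86 in the large and −0.95 in the small subunit. Those without had −0.89 and −0.86. *RSM22* was the highest (1.53), followed by *MRP49* (0.86) and *MRP7* (0.43). The lone S288c 2μ-MSS11 replicate 2 lay above Σ1278b wild type by a median of 0.32, with 52 of the 66 genes higher. Wild type b minus Σ1278b wild type, which share a labelled genotype, had a median of 0.34 with 58 of the 66 higher, so the same labelled strain differed between array sets after the shift of all probe sets (1.21) was removed.

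Over the 16 arrays, with each array's median removed, the genes followed each other closely. The median correlation between pairs of genes was 0.87, and 47 of the 66 correlated above 0.9 with the mean of the others, as did 5.91% (321 of 5432) of the other probe sets. These are descriptions over 16 arrays that share array sets and the split within S288c 2μ-MSS11. *RSM19* and *MRPL49* were closest to the mean of the others, with a correlation of 0.99 each. The probe sets of other genes with the profile most like the mean of the 66 were those of *CYT2*, which encodes the enzyme that attaches haem to cytochrome c1, *TIM23*, a channel of the inner-membrane import machinery, and *COX11*, needed to put copper into cytochrome oxidase, with a correlation of 0.99 each.

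A few genes kept apart from this common profile, and they were named after their values were seen. *RSM22* ran against it with a correlation of −0.85, *MRP49* at −0.44, *MRP8* at −0.15, *MRPL36* at −0.08 and *MRPS18* at −0.01. *MRPL22* (0.27), *MRP7* (0.38) and *MRP10* (0.48) were also low. In *MRPS18*, for a small-subunit protein with a bacterial homologue, S288c 2μ-MSS11 was at 10.75 and 11.74 and S288c wild type at 10.72 and 10.68, but Σ1278b 2μ-MSS11 at 10.32 and 10.43 overlapped with Σ1278b wild type at 10.42 and 10.51. *MRPL36*, for a large-subunit protein, was at 11.25 and 11.65 in S288c 2μ-MSS11 and 11.35 and 11.22 in S288c wild type, and at 10.98 and 11.06 in Σ1278b 2μ-MSS11 and 11.13 and 11.32 in Σ1278b wild type. *MRP10*, whose small-subunit product has a disulfide fold, was at 10.15 and 11.07 in S288c 2μ-MSS11 and 10.08 and 10.13 in S288c wild type. Apart from *MRP8* (−0.43), these were the genes of the 66 that were not lower in S288c wild type than in Σ1278b wild type, relative to all probe sets.

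Genes of the same machinery under other names were read from lists. Here and in the paragraphs on lists that follow, each count is to be read against the share of all probe sets called. Over all 16 arrays 7.26% were called higher and 9.60% lower in S288c 2μ-MSS11, and 1.05% and 4.17% in Σ1278b 2μ-MSS11. In Σ1278b 2μ-MSS11 the shares were 0.964% and 3.07% with the Σ1278b MSS11 arrays alone, and 10.1% and 24.0% without both S288c 2μ-MSS11 arrays. With 1 S288c 2μ-MSS11 array left out, the S288c shares given above were larger in both directions, so those counts are not to be read against 7.26% and 9.60%. With the 4 S288c arrays fitted alone 0 of the 5498 probe sets passed limma's test and 0 of the 66 genes had an unadjusted p under 0.05, so none of the S288c calls given here for the lists held in that setting. The 12 mitoribosomal proteins with other symbols had a median change of 0.62 in S288c 2μ-MSS11, with 0 called, and −0.36 in Σ1278b 2μ-MSS11, with 1 lower (*NAM9*, −0.52, adjusted p = 0.0313). *NAM9*, for a small-subunit protein, was at 10.22 and 10.13 in Σ1278b 2μ-MSS11 and at 10.71 and 10.67 in Σ1278b wild type. With the Σ1278b MSS11 arrays alone 4 of the 12 were lower, *NAM9*, *MNP1*, *RML2* and *IMG2*. Without S288c 2μ-MSS11 replicate 1 all 12 were called higher in S288c, and without replicate 2 none was. Of 9 mitochondrial translation factors 1 rose in S288c 2μ-MSS11 (median of the list 0.85): *MEF2*, a ribosome recycling factor, at 6.68 and 7.70 in S288c 2μ-MSS11 and 4.59 and 5.23 in S288c wild type (2.28, adjusted p = 0.00127). None of the 9 was called in Σ1278b 2μ-MSS11 (median −0.24), and 1 was lower with the Σ1278b MSS11 arrays alone (*RRF1*, another recycling factor). Without S288c 2μ-MSS11 replicate 1, 7 of the 9 were called higher in S288c and 0 lower, and without replicate 2, 1 higher and 1 lower. Of 14 mitochondrial aminoacyl-tRNA synthetases 0 were called in S288c 2μ-MSS11 (median 0.22) and 1 was lower in Σ1278b 2μ-MSS11 (*MSK1*, for lysine, −0.88, adjusted p = 0.0132, median of the list −0.45), a call lost with the Σ1278b MSS11 arrays alone (adjusted p = 0.0595). In S288c 11 of the 14 were higher without 2μ-MSS11 replicate 1, and 7 were lower without replicate 2. Of 13 genes for assembly of the mitochondrial ribosome and its RNA, *MRH4* rose (0.64) and *GEP5* fell (−0.56) in S288c 2μ-MSS11, while *MTG1* rose (0.56) and *MSS116* (−0.92) and *MTG2* (−0.85) fell in Σ1278b 2μ-MSS11. Of 15 translational activators, which each serve 1 or a few mitochondrial messenger RNAs, *CBS1*, *AEP3* and *PET54* fell in S288c 2μ-MSS11 (−0.67 to −0.23) and *AEP2* in Σ1278b 2μ-MSS11 (−0.42). With the Σ1278b MSS11 arrays alone *MTG1* kept its call, while *MSS116* (adjusted p = 0.0538), *MTG2* (0.0690) and *AEP2* (0.0517) lost theirs and *MSS51*, another activator, was lower. In S288c the assembly genes were 6 higher and 4 lower without 2μ-MSS11 replicate 1, and 0 and 3 without replicate 2. The activators were 8 higher and 5 lower without replicate 1, and 0 and 5 without replicate 2.

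Among 9 regulators 3 rose in S288c 2μ-MSS11 (7.26% of all probe sets did) and 2 fell in Σ1278b 2μ-MSS11 (4.17%). With the Σ1278b MSS11 arrays alone 3 fell, *PUF3*, *HAP3* and *SFP1*, while with the S288c arrays alone no regulator passed. Without S288c 2μ-MSS11 replicate 1, 4 were higher and 4 lower in S288c, and without replicate 2, 5 were higher and 2 lower. *HAP4* was at 11.32 and 11.51 in S288c 2μ-MSS11 and at 9.32 and 9.73 in S288c wild type (1.89, SE 0.15, adjusted p = 7.92e-05, and 0.479 with the S288c arrays alone), and here both replicates lay well above wild type. *HAP4* was at 11.30 and 10.997 in Σ1278b 2μ-MSS11 and 10.76 and 10.54 in Σ1278b wild type (0.50, adjusted p = 0.0919). *HAP3*, a DNA-binding subunit of the same complex, rose in S288c 2μ-MSS11 (0.37, adjusted p = 0.0383) and fell in Σ1278b 2μ-MSS11 (−0.49, adjusted p = 0.0265). *ROX1*, a repressor of hypoxic genes, rose in S288c 2μ-MSS11 (0.76, adjusted p = 0.0327). *PUF3* was at 4.83 and 4.24 in Σ1278b 2μ-MSS11, at 5.70 and 5.59 in Σ1278b mss11 and at 6.12 and 6.30 in Σ1278b wild type (2μ-MSS11 change −1.68, adjusted p = 0.0108). Both Σ1278b 2μ-MSS11 values of *PUF3* were dim, under a log2 intensity of 5. In S288c *PUF3* was dimmer still, at 3.47 and 2.53 in 2μ-MSS11 and 2.35 and 2.33 in wild type.

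Other growth-related lists moved at the same time. Their counts are to be read against the same shares of all probe sets. Their S288c calls, too, were lost with the S288c arrays fitted alone. Of 148 cytosolic ribosomal protein probe sets 40 rose and 0 fell in S288c 2μ-MSS11 (median 0.30), and 0 rose and 10 fell in Σ1278b 2μ-MSS11 (median −0.17). Those 10 are 4 with the Σ1278b MSS11 arrays alone, and 57 without both S288c 2μ-MSS11 arrays. In S288c 110 were higher without 2μ-MSS11 replicate 1, and 29 without replicate 2. Of 42 cytosolic ribosome biogenesis genes 10 rose in S288c 2μ-MSS11 (median 0.61) and 4 fell in Σ1278b 2μ-MSS11 (median −0.59), with all 42 positive in S288c and all 42 negative in Σ1278b. None was called with the Σ1278b MSS11 arrays alone, and 33 were lower without both S288c 2μ-MSS11 arrays. In S288c 39 were higher without 2μ-MSS11 replicate 1 and 4 without replicate 2. In Σ1278b mss11 the same 42 were all positive (median 0.25, 0 called), where the mitochondrial ribosomal protein genes had a median of −0.15. Of 35 genes of the respiratory chain and the ATP synthase 6 rose in S288c 2μ-MSS11 (median 0.25) and 1 rose in Σ1278b 2μ-MSS11 (*SDH3*, a succinate dehydrogenase subunit, 0.41, adjusted p = 0.0239, and 0.0565 with the Σ1278b MSS11 arrays alone), with a median of −0.03. Without S288c 2μ-MSS11 replicate 1, 9 were higher and 10 lower in S288c, and without replicate 2, 26 were higher and 0 lower. Of 20 stress genes none was called over all 16 arrays. Their median was 0.30 in S288c 2μ-MSS11 and 1.13 in Σ1278b 2μ-MSS11, where all 20 changes were positive, and −0.27 in Σ1278b mss11, where 17 were negative. On the arrays titled FLO8 overexpressed it was 1.62 with all 20 positive, and on those titled flo8 deleted 0.54 with 18 positive, while the medians of the mitochondrial ribosomal protein genes there were −0.02 and −0.08. The Σ1278b wild type arrays themselves differed, with stress genes at 0.01 and 1.35 relative to the array median. Of the 20, 12 were higher in Σ1278b 2μ-MSS11 without both S288c 2μ-MSS11 arrays; in S288c 7 were lower without 2μ-MSS11 replicate 1 and 5 higher without replicate 2. Over all 16 arrays no gene of any list was called in Σ1278b mss11 or in the FLO8 set. These lists also split between the S288c 2μ-MSS11 replicates: relative to wild type, the stress genes stood at 1.07 in replicate 1 and −0.71 in replicate 2, and the respiratory genes at 0.54 and −0.13. The part of growth state in the change of the mitochondrial ribosomal protein genes was not tested.

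**Figure D5:**
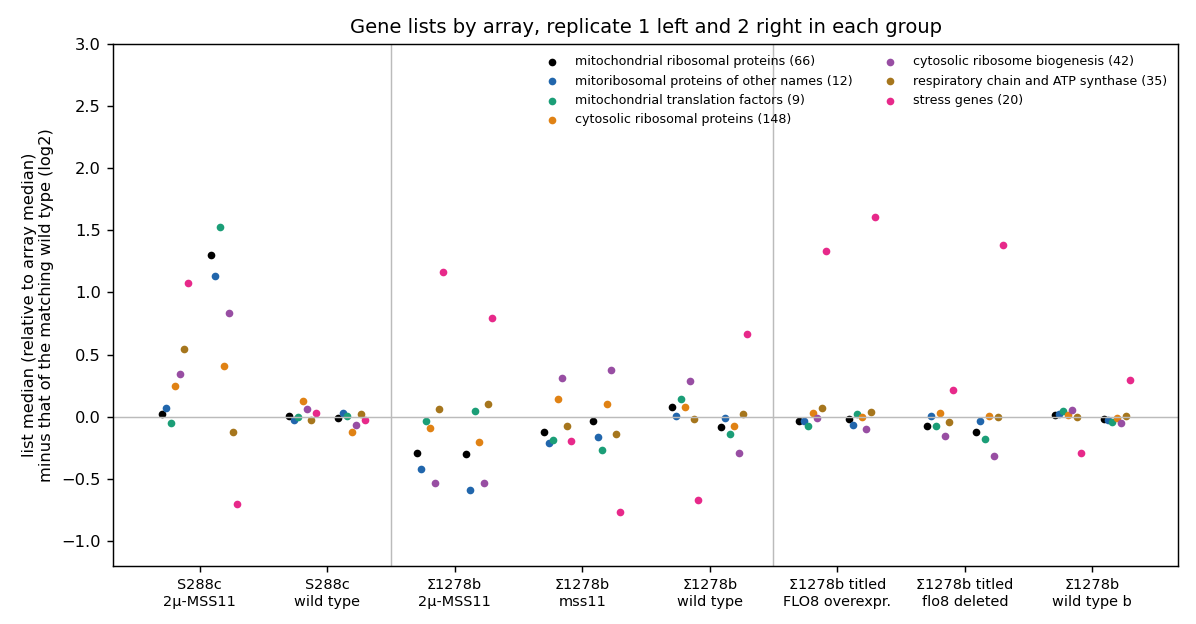
Points give, for each of 16 arrays (replicate 1 left, replicate 2 right), the median of a gene list relative to the array median, minus the same for the matching wild type (vertical axis, log2); colours mark 7 lists. In S288c 2μ-MSS11 replicate 2 the mitochondrial ribosomal protein genes stand at 1.31 and mitochondrial translation factors at 1.52, against 0.02 and −0.05 in replicate 1, and in Σ1278b 2μ-MSS11 the mitochondrial ribosomal protein genes stand at −0.29 and −0.30.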

How the data were processed

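RNA from 16 cultures (8 conditions, 2 each) was measured on Affymetrix Yeast Genome 2.0 arrays. The authors deposited 1 background-corrected and normalized intensity per probe set and array on a linear scale. Their methods name RMA with log2 values, whereas the submitters' processing notes name GCRMA, so the exact route is open. The 3 sets of arrays had different lowest intensities, so values were compared within a set, or relative to the array median. A change in the array-wide distribution would alter both kinds of comparison.

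Of 10928 probe sets, 213 controls were removed, 7244 had 1 gene symbol, 1 had several and 3683 had none. The test ran over 5498 probe sets that the annotation pairs with an *S. cerevisiae* gene. Intensities were floored at 1 and taken to log2 (0 values were at the floor). Changes were fitted with limma 3.58.1 in R 4.3.3 (lmFit, eBayes; 16 arrays, 8 condition means, 8 residual degrees of freedom), with Benjamini-Hochberg adjustment over all tested probe sets and a threshold of 0.05. Tests were two-sided. With 2 arrays per condition precision is limited by their number. The genes named in full were the called genes with the largest changes, the genes nearest the threshold on either side, *MRP8*, and up to 4 genes per list with the smallest adjusted p; others are said to have been chosen later. The members and lists were chosen with earlier results of these data known. Alternatives were other normalizations, filters, variance models, subsets of arrays and a replicate block.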

Additional observations from a re-analysis of the deposited data

Results flagged for a closer look

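For 9 of the 66 genes the change under 2μ-MSS11 differed between the strains by a test of the difference itself (limma, S288c minus Σ1278b, log2). These were *MRP4* (2.04), *MRPL20* (1.81), *RSM27* (1.78), *MRPL40* (1.4), *MRPL25* (1.28), *RSM28* (1.02), *MRPL33* (0.99), *RSM24* (0.97) and *MRPL3* (0.93). All 9 were positive, and 10.3% of all probe sets were called positive, so the share among the 66 was near this background. No gene of the 66 passed with the arrays of these conditions fitted alone, or with a variance factor for each condition. Of the 9, only *MRP4* was also called within a strain. Each S288c change joins 2 arrays that differed on most of the 66 genes. Without S288c 2μ-MSS11 replicate 2 the 9 differences were between 0.56 (*MRPL3*) and 1.58 (*MRP4*), and without replicate 1 between 1.30 (*MRPL3*) and 2.55 (*MRPL20*). Groups of 2 arrays are too small to test a single array as an outlier.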

How the results depend on the processing

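The direction of the 17 named results counted below was not reversed under any alternative tried. Other genes named in the text did change sign in S288c. Without 2μ-MSS11 replicate 2, *MRPL31* differed from S288c wild type by −0.04 and *MRP8* by 0.24. Of the median changes relative to all probe sets, only that in S288c 2μ-MSS11 changed sign, to −0.01 without its replicate 2. Counts of called genes moved more. In S288c 2μ-MSS11 the count of 2 became 0 with no organism filter, 0 with the S288c arrays alone, 0 with a variance factor for each condition, and between 0 and 64 with 1 array left out. In Σ1278b 2μ-MSS11 the count of 1 became 0 with no organism filter, 13 with its own arrays alone, 21 with a variance factor and between 0 and 2 with 1 Σ1278b array left out. Settings added after the data were seen gave 49 without either or both S288c 2μ-MSS11 arrays, and 46, 47, 47 and 49 with a Σ1278b array left out as well. The median relative to all probe sets was between −0.45 and −0.27 with 1 Σ1278b array left out, the smallest without wild type replicate 1. In Σ1278b mss11 the count of 0 became 10 or 3 without the S288c 2μ-MSS11 arrays and wild type replicate 1 or 2. On the arrays titled flo8 deleted it became 4 with a variance factor. For the difference between the strains the count of 9 became 1 with no organism filter, 0 with the arrays of the 4 conditions alone, 0 with a variance factor, and between 1 and 65 with 1 array left out, with a median between 0.29 and 1.62. The cause was not tested, except that fitting fewer arrays changes the shared variance and more probe sets raise the number of tests. Of 17 named results under the 8 other settings, 96 of 136 values kept their side of the threshold, 37 lost it and 3 gained it; with 1 array left out, 54 of 104 kept it, 46 lost it and 4 gained it.

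With the replicate block the counts were 1 in S288c 2μ-MSS11, 1 in Σ1278b 2μ-MSS11 and 0 in the 3 other comparisons with a wild type. For the difference between the strains the count was 7. The shares of all probe sets called with the block are not given here, so these counts are not read as results about the genes. Deviations of same-numbered arrays correlated at −0.41, 0.09 and 0.06 in the Σ1278b MSS11 set, at −0.05 in S288c and at 0.15, 0.26 and 0.16 in the FLO8 set. The labels state no shared batch or day, and whether the numbers pair the arrays was not settled for the FLO8 set, where with and without the block 0 of the 66 were called. All 66 genes passed the filter on dim probe sets.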
